A study of Mus musculus with 5 samples.

Results

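The genes of cholesterol and fatty acid synthesis that the SREBP transcription factors control were followed in the colon of mice given an agonist of the IL-11 receptor. The set was chosen by name and held 30 genes, of 32917 features (genes or unnamed transcripts) tested on the arrays. RNA of colon tissue was hybridised, labelled with Cy3, to 1 Agilent mouse array per mouse, with 5 arrays in all. The 2 Control arrays held wild-type C57BL/B6 mice with no injection named in the labels. The 3 NT-3N arrays held wild-type C57BL/B6 mice whose colon was taken 3 hr after an intravenous injection of NT-3N, which the methods describe as human IL-11 altered in its linker region. Without an injected control, effects of the injection and of NT-3N cannot be told apart.

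Cells make cholesterol from acetyl-CoA through mevalonate, isoprenoids and squalene, and make fatty acids from the same acetyl-CoA. SREBP proteins are held in the endoplasmic reticulum by SCAP and the INSIG proteins when sterols are plentiful. When sterols fall, SCAP escorts SREBP to the Golgi, where proteases release the part that enters the nucleus and switches these genes on together. SREBP-2, made by Srebf2, acts mainly on the cholesterol genes, and SREBP-1c, made by Srebf1, mainly on the fatty acid genes. Oxysterols, such as the 25-hydroxycholesterol that Ch25h makes, bind INSIG and hold SREBP back. In the gut, epithelial cells make cholesterol for their membranes. Array signals report mRNA only, so processing of SREBP itself was not measured.

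Of the 30 genes, 29 had a probe that passed the filter on dim signals, and 28 of those lay well above background on all 5 arrays. Acat2 was not matched to a probe and has no value here. Tm7sf2 lay above background on 4 arrays, and its lost spot is described further on. All values below are log2 processed signals after quantile normalization, read from the brightest probe of a gene, and a difference of 1 on this scale is 2-fold. Levels of different genes come from different probes and are not compared.

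Promoters of 4 of the genes are shown because the letters that SREBP-2 and its partner NF-Y are known to read were searched there, and because the levels of these genes are described below. Insig1 had the largest fitted fold change of the regulators, and Hmgcs1, Msmo1 and Idi1 had the largest gaps between NT-3N 2 and the mean of the other NT-3N mice among genes with a single promoter entry. The sequences are the 250 bases before the transcription start in the RefSeq table of build GRCm38.p6, written 5′ to 3′ on the strand of the gene. Capitals mark the sterol element TCACNCCAC, the CCAAT box and the E-box CACGTG, each searched on both strands, so that a CCAAT box on the other strand reads ATTGG. The windows are chr5:28071162-28071411 on the + strand for Insig1, chr13:119690101-119690350 on the + strand for Hmgcs1, chr8:64733579-64733828 on the - strand for Msmo1 and chr13:8885356-8885605 on the + strand for Idi1.
Insig1: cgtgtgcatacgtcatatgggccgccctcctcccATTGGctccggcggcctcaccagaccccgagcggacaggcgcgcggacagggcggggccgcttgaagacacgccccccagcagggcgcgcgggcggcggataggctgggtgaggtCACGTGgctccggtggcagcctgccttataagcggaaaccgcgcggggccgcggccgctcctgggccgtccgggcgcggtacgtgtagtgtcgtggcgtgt
Hmgcs1: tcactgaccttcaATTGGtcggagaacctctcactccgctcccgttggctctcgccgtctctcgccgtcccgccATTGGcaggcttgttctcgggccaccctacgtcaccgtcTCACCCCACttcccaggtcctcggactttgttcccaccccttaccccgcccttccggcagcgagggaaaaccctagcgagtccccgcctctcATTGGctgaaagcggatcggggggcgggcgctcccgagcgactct
Msmo1: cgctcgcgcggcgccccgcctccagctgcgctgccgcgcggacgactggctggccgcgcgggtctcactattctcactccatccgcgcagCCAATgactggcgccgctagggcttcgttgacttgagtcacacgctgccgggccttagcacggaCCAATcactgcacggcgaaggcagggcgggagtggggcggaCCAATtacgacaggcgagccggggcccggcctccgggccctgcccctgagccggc
Idi1: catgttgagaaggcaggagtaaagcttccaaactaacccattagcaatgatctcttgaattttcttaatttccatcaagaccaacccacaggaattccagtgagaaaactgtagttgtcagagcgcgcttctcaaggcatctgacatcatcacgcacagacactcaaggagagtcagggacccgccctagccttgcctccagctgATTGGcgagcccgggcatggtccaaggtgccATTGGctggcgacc

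Hmgcs1 held the sterol element, at -137 to -129 before the start, between 3 CCAAT boxes. Msmo1 also held 3 CCAAT boxes and Idi1 held 2, while Insig1 held 1 CCAAT box and 1 E-box. Over the whole set, 24 genes had at least 1 promoter entry, with 32 entries in all. Fdps, Fdft1, Sqle, Stard4, Scd1 and Scd2 had no entry. A CCAAT box stood in 65.6% of the 32 entries, against 33.8% of the 32851 promoters of the table at the same length. The GC box GGGCGG stood in 71.9% of the entries against 32.7% of all promoters, and the E-box in 15.6% against 6.02%. The exact sterol element was rare in both, at 3.12% against 1.05%, and Hmgcs1 was the gene that held it. Entries of 1 gene can overlap, none of the marked matches overlap each other, and a match is a description of letters and not of binding.

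The arrays were alike in quality. Between 70.6% and 72.9% of 56605 probes lay well above background on each, no spot was saturated, and correlations between arrays across features ran from 0.980 to 0.992. All 14 tested markers of colon epithelium, such as Epcam and Vil1, lay above background on every array. The 8 genes of a gp130-STAT3 response list, among them Socs3 and Serpina3n, were higher in the NT-3N mice with adjusted p from 0.00266 to 0.0434 in limma, and none of the 8 overlapped between the groups. Of all features, 0.143% passed in either direction and 13.5% had groups that did not overlap with NT-3N higher. The number of the 8 that passed was 1 with no filter on dim probes, 1 with no intensity trend, 7 with the mean of all probes of a gene and 0 with the replicate number as a block. All 8 kept a higher fitted value without any 1 array, but the number that passed was 6 without Control 1 or Control 2, 8 without NT-3N 1, 1 without NT-3N 2 and 0 without NT-3N 3. On the Control 1 array, 100 of 59305 spots were at least 5 log2 units below every other array, and all of them lay between rows 2 and 230 of 384 and columns 101 and 128 of 164. Such a spot is called lost here. The other 4 arrays had 0, 1, 0 and 0.

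No gene of the set differed between NT-3N and Control at an adjusted p under 0.05 in limma. Over all features 0.143% passed that threshold, 47 of 32917. At an unadjusted p under 0.05, 1 of the 29 genes was higher in NT-3N, against 4.95% of all features, and 0 were lower, against 4.67% of all features. The gene was Insig1. The fitted values were higher in NT-3N for 19 genes and lower for 10, with a median log2 fold change of 0.04, against -0.02 over all features. With the second probe of Tm7sf2, which was not lost on any array, 18 were higher and 11 lower, and the median stayed at 0.04. Adjusted p-values ran from 0.483 to 1. For 27 of the 29 genes the 95% interval of the fold change lay within 1 log2 unit either way, and for 14 it lay within 0.5. The exceptions to the wider bound were Scd1 and Tm7sf2. An exact two-sided permutation test with 2 arrays against 3 has a smallest possible p of 0.1 for 1 gene.

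**Figure D1:**
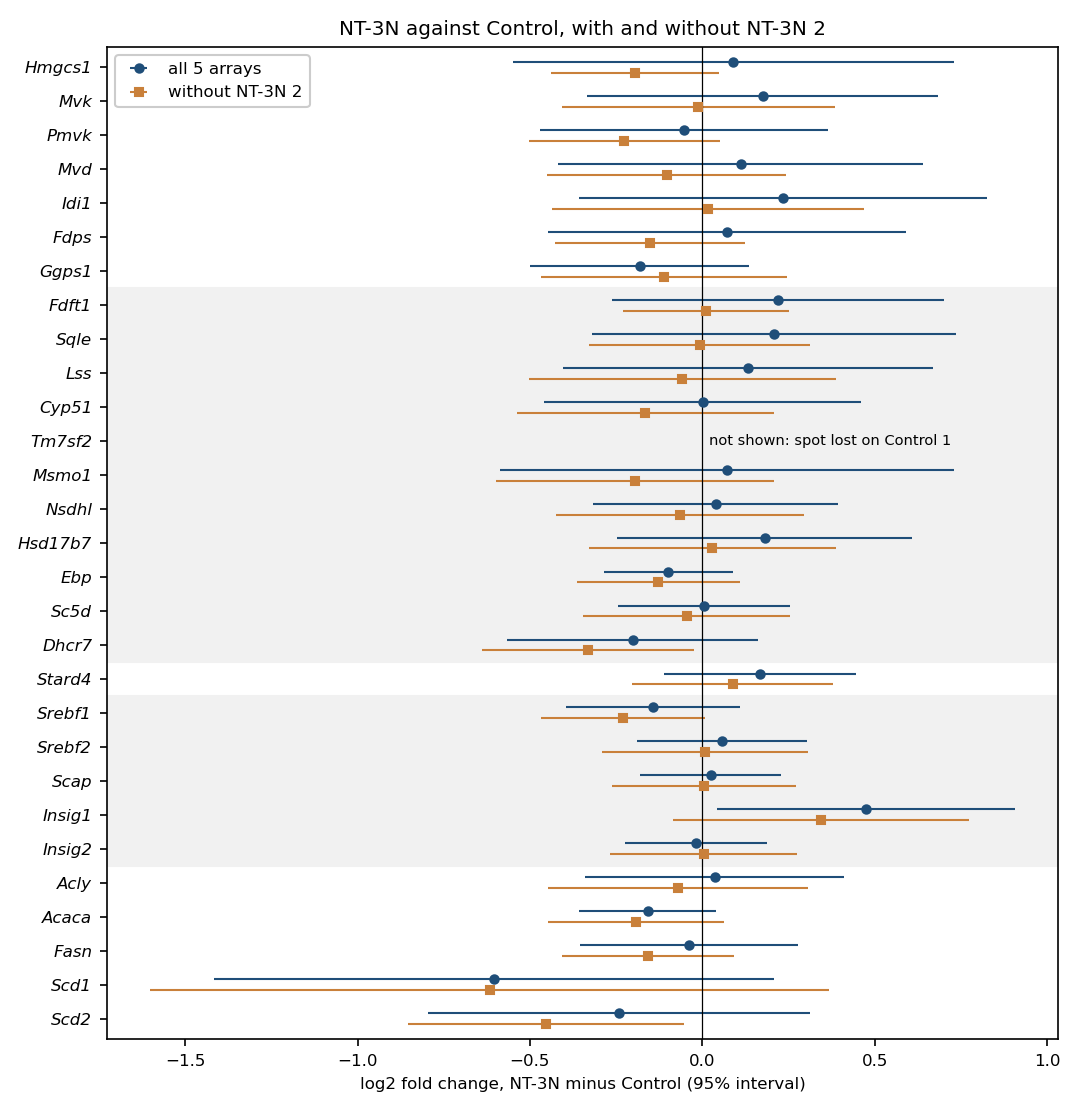
Log2 fold change of NT-3N minus Control for each gene (x axis, log2 units) with its 95% interval from limma, from all 5 arrays (circles) and without NT-3N 2 (squares); shaded bands separate the steps of the pathway. With all 5 arrays the interval of Insig1 alone excludes 0, and without NT-3N 2 the median over the genes moves from 0.04 to -0.07.

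The largest shared difference seen within the set set 1 array, NT-3N 2, apart from the others. Each mouse had 1 array, so the animal, the dissection, the RNA preparation and the array cannot be told apart. In NT-3N 2 the genes stood high together: it was the highest of the 5 arrays for 22 of the 29 genes, or 75.9%, where it was the highest for 15.7% of all features. It was above both other NT-3N arrays for 26 of 29 genes, or 89.7%, against 26.9% of all features. The gap to both others was at least 0.3 log2 units for 16 of 29 genes, or 55.2%, against 4.93% of all features. The 16 were Hmgcs1, Mvk, Pmvk, Mvd, Idi1, Fdps, Fdft1, Sqle, Lss, Cyp51, Msmo1, Hsd17b7, Dhcr7, Insig1, Fasn and Scd2. These counts were made after the values had been seen, the genes share 5 arrays, and a level in 1 mouse has no replicate, so no test is attached to them.

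NT-3N 1 and NT-3N 3 did not share these high levels. With Tm7sf2 left out, both NT-3N 1 and NT-3N 3 lay at or below the higher control for 20 of 28 genes, of which both lay below both controls for 8. Both lay above the controls for 1, Insig1. NT-3N 2 lay above both controls for 21 of 28 genes. These counts against the controls were not made over all features, so they only describe the set. NT-3N 1 and NT-3N 3 were each the highest array for 0 of the 29 genes, against 23.7% and 20.7% of all features. Leaving out NT-3N 2 moved the median log2 fold change of the 29 genes from 0.04 to -0.07, with 9 genes higher and 20 lower. In that fit 0 of the genes and 1 feature of the whole table passed the adjusted threshold, and Dhcr7 and Scd2 were lower at an unadjusted p of 0.0384 and 0.0329 (adjusted p = 0.741 and 0.722).

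**Figure D2:**
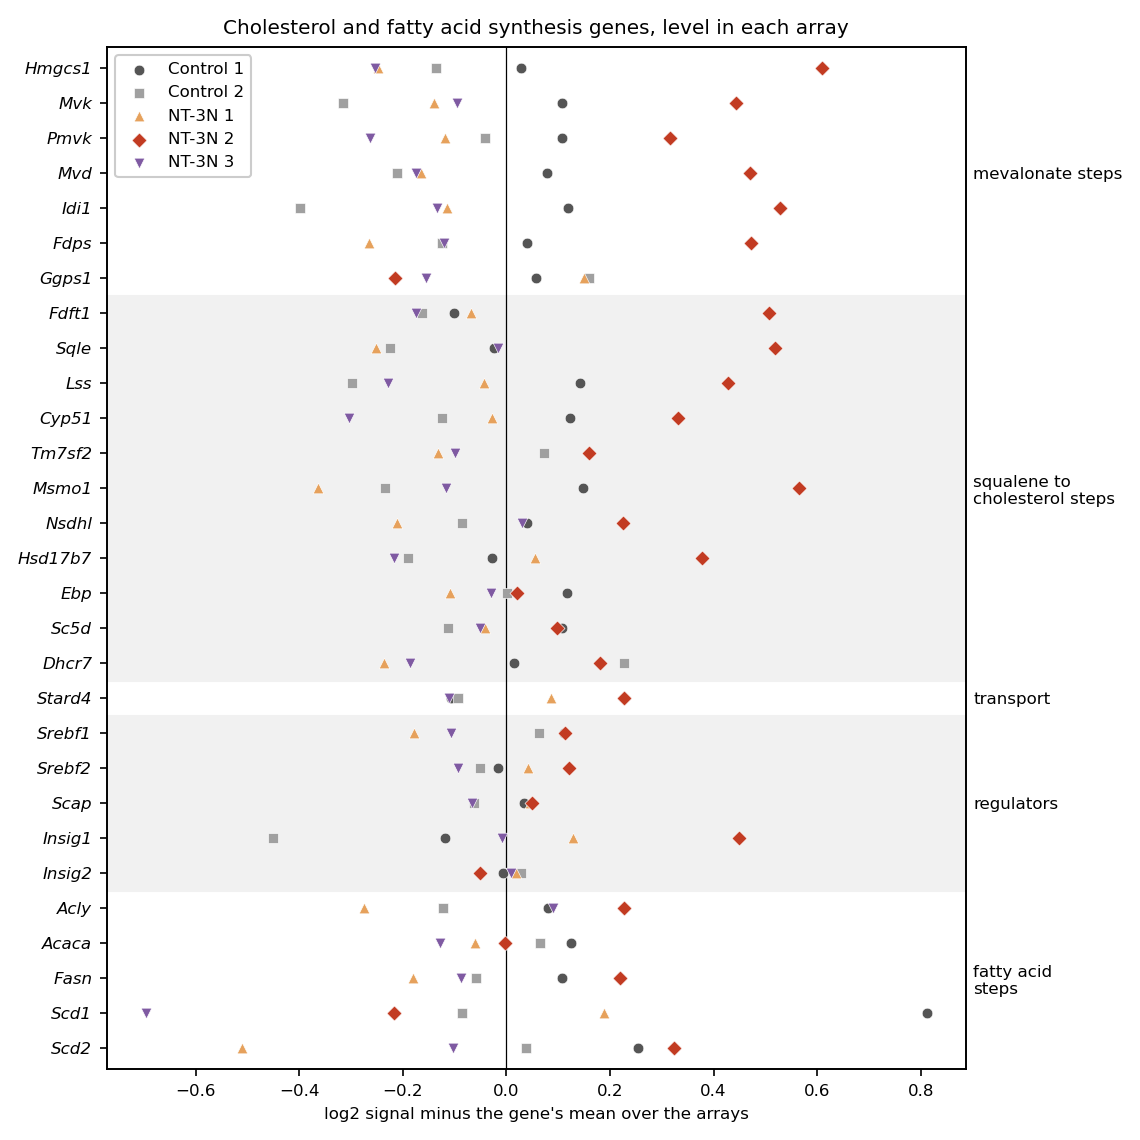
Level of each gene on each array as log2 signal minus the mean of the gene over the 5 arrays (x axis, log2 units), with genes in the order of the pathway; for Tm7sf2 the mean is over 4 arrays and Control 1 is left out. NT-3N 2 (diamonds) lies furthest to the right for 22 of the 29 genes, furthest from the mean for Hmgcs1 and Msmo1, and it lies furthest to the left for Ggps1 and Insig2.

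The mevalonate steps showed the widest gap. Hmgcs1, the synthase that joins acetoacetyl-CoA with acetyl-CoA, measured 14.73 and 14.56 in the controls and 14.45, 15.31 and 14.44 in NT-3N 1, 2 and 3. NT-3N 2 was above and the other NT-3N mice were below both controls, so the groups overlapped. The fold change was 0.09 (SE 0.265, 95% interval -0.55 to 0.73, limma adjusted p = 0.932, 2 Control and 3 NT-3N arrays), and NT-3N 2 exceeded the mean of the other NT-3N mice by 0.86. Idi1, the isomerase that makes the activated isoprenoid unit, measured 12.84 and 12.32 in the controls and 12.61, 13.25 and 12.59 in NT-3N. The controls were as far apart as 0.52, NT-3N 2 was the highest array, and the fold change of 0.23 (SE 0.245, adjusted p = 0.790) was within that spread.

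The rest of this arm followed the same order with 1 exception. Mvk, Pmvk and Mvd, the kinases and the decarboxylase that turn mevalonate into isoprenoid, stood 0.56, 0.51 and 0.64 higher in NT-3N 2 than in the mean of the other NT-3N mice. For Fdps, which makes farnesyl diphosphate, the gap was 0.66. Ggps1, which takes farnesyl units towards protein prenylation and away from sterols, had the opposite order, with 11.29 and 11.39 in the controls and 11.38, 11.02 and 11.08 in NT-3N. It was lowest in NT-3N 2, and its fold change was -0.18 (SE 0.131, adjusted p = 0.700). Over the 7 genes of the arm, 5 had a higher and 2 a lower fitted value in NT-3N, and the median fold change was 0.09.

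Among the enzymes that carry squalene to cholesterol, Sqle, the epoxidase that sets the pace of the late pathway, measured 13.70 and 13.50 in the controls and 14.25 in NT-3N 2. The other NT-3N mice measured 13.48 and 13.71, on either side of the controls. The fold change was 0.21 (SE 0.219, 95% interval -0.32 to 0.74, adjusted p = 0.789). Msmo1, the methylsterol oxidase, measured 14.32 and 13.94 in the controls and 13.81, 14.74 and 14.06 in NT-3N, a gap of 0.80 between NT-3N 2 and the mean of the others. Fdft1, squalene synthase, measured 13.72 and 13.66 in the controls and 13.75, 14.33 and 13.64 in NT-3N. Both genes thus had NT-3N 2 alone well above the controls.

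The gap was smaller for the other genes of these steps. Apart from Tm7sf2, it ran from 0.56 for Lss through 0.50 for Cyp51, 0.46 for Hsd17b7, 0.39 for Dhcr7 and 0.32 for Nsdhl to 0.14 for Sc5d and 0.09 for Ebp, in order of size and not of step. Ebp and Sc5d were highest in Control 1 and Dhcr7 in Control 2. Dhcr7, the last reductase before cholesterol, measured 11.56 and 11.78 in the controls and 11.31, 11.73 and 11.36 in NT-3N, with a fold change of -0.20 (SE 0.151, adjusted p = 0.708). Of the 11 genes of these steps, 9 had a higher and 2 a lower fitted value in NT-3N, or 8 and 3 with the second probe of Tm7sf2 described next. None had groups that did not overlap. Over both sterol arms with Stard4, a carrier of sterol between membranes, NT-3N 2 exceeded the mean of the other NT-3N mice by a median of 0.51 over 19 genes, and 94.6% of all features had a gap at or below that. Stard4 itself measured 11.94 and 11.95 in the controls and 12.13, 12.27 and 11.93 in NT-3N.

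Tm7sf2, a sterol reductase, had the largest fitted fold change of the set, and no fold is given for it because the value rests on a lost spot. The brighter of its 2 probes gave a log2 signal of 2.39 on Control 1, not well above background, and 12.38, 12.17, 12.46 and 12.21 on Control 2 and NT-3N 1, 2 and 3. Before normalization the spot read 5.31 on Control 1 against 4011 to 6547 on the other arrays. The spot was at row 177 and column 126, within the rows and columns that held the lost spots of that array. The second probe, outside those columns at row 166 and column 56, measured 9.82 and 9.95 in the controls and 9.55, 9.92 and 9.70 in NT-3N. Its fold change was -0.16 (limma adjusted p = 0.738), and on this probe the groups overlapped. Of the 50 spots that carry probes for the set, 1 was lost, and 1 more lay within 5 spots of a lost one, on a further probe of Ggps1 that is not the probe shown. The shown Mvd spot and a further Msmo1 spot lay within the same rows and columns and were well above background on Control 1.

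**Figure D3:**
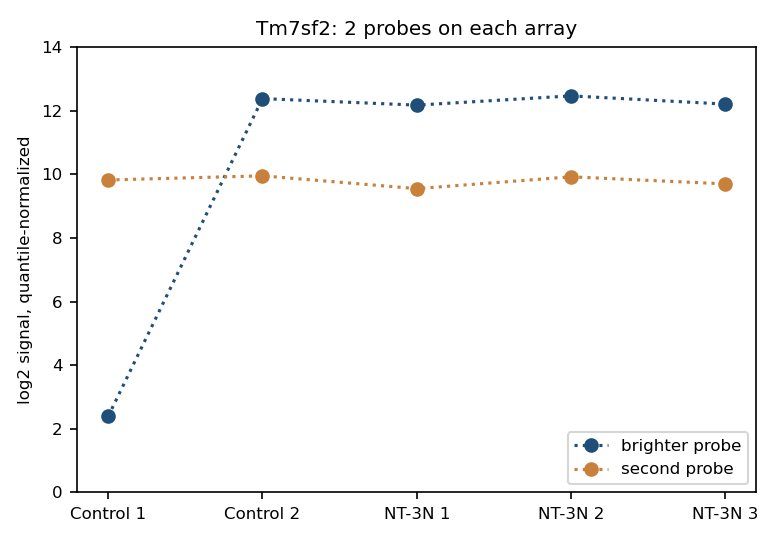
Log2 signal after quantile normalization (y axis) of the 2 Tm7sf2 probes on the 5 arrays (x axis). The brighter probe falls to 2.39 on Control 1 and lies between 12.17 and 12.46 elsewhere, while the second probe lies between 9.55 and 9.95 on all 5 arrays.

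Of the regulators, Insig1, which anchors SCAP and is itself a target of SREBP, measured 8.69 and 8.36 in the controls and 8.94, 9.26 and 8.80 in NT-3N 1, 2 and 3. All 3 NT-3N mice lay above both controls, and it was the gene of the set whose groups did not overlap with NT-3N higher, where 13.5% of all features had that order. The fold change was 0.47 (SE 0.179, 95% interval 0.04 to 0.91, limma adjusted p = 0.483). The lowest NT-3N mouse was 0.11 above Control 1, while the controls differed by 0.33. Without NT-3N 2 the fold change was 0.34 (limma adjusted p = 0.809) and without Control 2 it was 0.31, and in neither fit was its unadjusted p under 0.05. Insig1 did not pass the test across all features in any fit.

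The remaining regulators varied little. Insig2, the anchor that SREBP does not induce, measured 11.02 and 11.05 in the controls and 11.04, 10.97 and 11.03 in NT-3N, a fold change of -0.02 (SE 0.0848, 95% interval -0.22 to 0.19, adjusted p = 0.958). Scap, the escort, measured 12.39 and 12.29 in the controls and 12.40, 12.40 and 12.29 in NT-3N, a fold change of 0.02 (SE 0.0846, 95% interval -0.18 to 0.23, adjusted p = 0.945). Srebf2 measured 10.58 and 10.55 in the controls and 10.64, 10.72 and 10.50 in NT-3N, a fold change of 0.06 (SE 0.102, 95% interval -0.19 to 0.30, adjusted p = 0.880). On the probes shown, these 3 genes spanned at most 0.21 over the 5 mice. Spans in the mevalonate arm ran from 0.37 for Ggps1 to 0.93 for Idi1. Sc5d and Ebp, of the steps from squalene, spanned 0.22 and 0.23. Insig2 varied more on its further probes, from 9.59 to 9.89 and from 9.25 to 9.65. Srebf1 measured 13.32 and 13.27 in the controls and 13.03, 13.33 and 13.10 in NT-3N, a fold change of -0.14 (SE 0.105, 95% interval -0.40 to 0.11, adjusted p = 0.701), with NT-3N 2 again at the level of the controls and the other NT-3N mice below it.

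Of the 5 fatty acid genes, 4 had a lower fitted value in NT-3N, with a median fold change of -0.16, and none passed the adjusted test. Acaca, the carboxylase that commits acetyl-CoA to fatty acids, measured 12.35 and 12.29 in the controls and 12.17, 12.23 and 12.10 in NT-3N. On this probe all 3 NT-3N mice lay below both controls, which was the order of 14.8% of all features. Of the probes shown for the set, that of Acaca alone had it. The fold change was -0.16 (SE 0.0825, 95% interval -0.36 to 0.04, limma adjusted p = 0.604). On the further Acaca probes the groups overlapped, with NT-3N 2 not below both controls. Some further Ggps1 probes had all 3 NT-3N mice below both controls. Fasn, the synthase that builds palmitate, measured 14.91 and 14.75 in the controls and 14.63, 15.03 and 14.72 in NT-3N. NT-3N 2 was its highest array, and the fold change was -0.04 (SE 0.131, 95% interval -0.36 to 0.28, adjusted p = 0.939). Acly, which supplies the acetyl-CoA, likewise was highest in NT-3N 2 on the probe shown, with a fold change of 0.04 (adjusted p = 0.957). On its second probe Control 1 was highest, at 7.98 against 7.67 in NT-3N 2, and NT-3N minus Control was -0.17.

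The desaturases Scd1 and Scd2, which place the first double bond in stearate and palmitate, did not share an order. Scd1 measured 10.55 and 9.65 in the controls and 9.93, 9.52 and 9.04 in NT-3N, a fold change of -0.60 (SE 0.336, 95% interval -1.42 to 0.21, adjusted p = 0.626). The highest array was Control 1 and the groups overlapped. Markers of adipocytes, which express Scd1 strongly, also differed between mice: the median deviation over 13 such markers, among them Adipoq, Cfd and Fabp4, was 0.61 and 0.06 in the controls and 0.46, -0.19 and -0.62 in NT-3N. Of the 13, 8 were highest in Control 1 and 4 in NT-3N 1, and 12 were above background on all arrays. The 5 mice had the same order for Scd1 as for this median, but not for the mean deviation over the markers. That mean was -0.46 in Control 2 and -0.04 in NT-3N 2, the reverse of Scd1. Adipoq, Cfd and Fabp4 also had Control 2 below NT-3N 2, while Cidec, Lep and Lpl did not. The part of fat tissue in the Scd1 values was not tested. Scd2 measured 15.40 and 15.19 in the controls and 14.64, 15.48 and 15.05 in NT-3N, a fold change of -0.24 (SE 0.229, 95% interval -0.79 to 0.31, adjusted p = 0.767), and it followed the sterol genes in being highest in NT-3N 2.

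Of 31 further genes of SREBP biology, 30 were tested, none passed the adjusted threshold, and the median fold change was 0.04. The gap between NT-3N 2 and the mean of the other NT-3N mice was 0.66 for Aacs, which activates acetoacetate and was picked out after its values were seen. Over the 30 genes NT-3N 2 was above both other NT-3N mice for 16, with a median gap of 0.15. At an unadjusted p under 0.05, 1 of the 30 was higher and 1 lower, against 4.95% and 4.67% of all features, so the counts do not set the list apart. Soat2, which esterifies cholesterol, was higher by 0.59 (adjusted p = 0.401). Acacb, the carboxylase tied to control of fatty acid oxidation, was lower, with a fold change of -0.49 (adjusted p = 0.456).

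**Figure D4:**
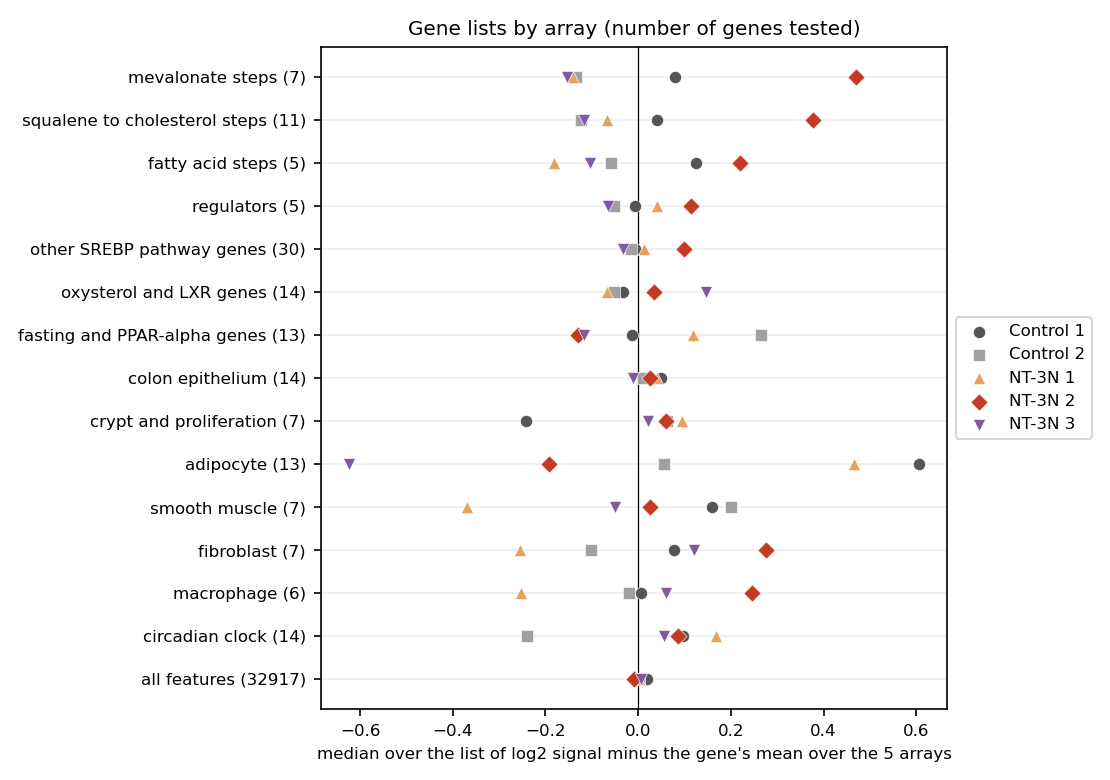
Median over each gene list of the log2 signal minus the mean of the gene over the 5 arrays (x axis, log2 units), 1 point per array, with the number of genes tested in brackets. NT-3N 2 stands at 0.47 for the mevalonate steps and 0.38 for the steps from squalene. It stands at 0.27 for fibroblast and 0.25 for macrophage markers, at 0.03 for colon epithelium markers and near 0 for all features.

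The set of genes that make and answer to oxysterols did not follow NT-3N 2. Ch25h measured 7.30 and 7.42 in the controls and 9.31, 9.34 and 9.58 in NT-3N, a rise of 2.05 (SE 0.132, limma adjusted p = 0.00875). Its SD among the injected mice was 0.147, near the median of 0.174 over all features, where the median over the 19 sterol genes was 0.318. A gene that passes the test tends to have a small SD, so that value is not a separate result. The rise was 2.08 without NT-3N 2 and 1.96 without NT-3N 3, where it no longer passed (limma adjusted p = 0.0634 and 0.0789). Nor did it pass with no filter on dim probes, with no intensity trend or with the replicate number as a block (limma adjusted p = 0.0718, 0.0569 and 0.346). Over the 14 genes of the oxysterol list, 1 passed the adjusted threshold in limma, and NT-3N 2 was above both other NT-3N mice for 2, with a median gap of -0.0035. Abcg5, a sterol exporter that LXR induces, had a fold change of 0.79 (adjusted p = 0.287), and Cyp7b1 had 0.62 (adjusted p = 0.250). Others of the list were nearer 0 or lower, with 0.05 for Abca1, -0.14 for Abcg1, 0.16 for Abcg8, 0.08 for Mylip and -0.20 for Lpcat3. In all, 8 of the 14 had a higher and 6 a lower fitted value in NT-3N, with a median of 0.06. The gp130-STAT3 list had a median deviation of 0.78, 0.95 and 0.92 in NT-3N 1, 2 and 3, and of -1.18 and -1.34 in the controls. Its genes all passed the test between groups and were chosen with earlier results known. A range within NT-3N narrower than the distance from the controls follows from that, so these values are no test of an even response.

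Other lists were set beside the gap in NT-3N 2. The median gap to the mean of the other NT-3N mice was 0.04 over 14 epithelial markers, 0.0029 over 7 crypt and proliferation genes, -0.07 over 13 adipocyte markers, -0.09 over 13 genes of fasting and PPAR-alpha, and -0.04 over 14 genes of the circadian clock. It was 0.34 over 7 fibroblast markers, 0.36 over 6 macrophage markers and 0.19 over 7 smooth muscle markers, and it was -0.11, -0.27 and -0.21 over markers of enteric neurons and glia, B cells and T cells. NT-3N 2 was above both others for 4 of the 7 fibroblast and 5 of the 6 macrophage markers, with NT-3N 1 the lowest array by the median of each. The median of NT-3N 1 minus NT-3N 3 was -0.40 over the fibroblast and -0.25 over the macrophage markers. Over the 19 sterol genes it was 0.01, with single genes to either side. Cyp51 measured 12.14 in NT-3N 1 and 11.87 in NT-3N 3, and Msmo1 measured 13.81 and 14.06. The part of cell makeup in the gap was not tested, and fewer cells of a type cannot be told apart from less RNA per cell in whole tissue.

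The controls differed in the same direction to a lesser degree. Control 1 was above Control 2 for 24 of the 29 genes, or 82.8%, against 52.2% of all features, with a median difference of 0.16. The exceptions were Ggps1, Tm7sf2, Dhcr7, Stard4 and Insig2. The median SD of a gene within the 3 NT-3N mice was 0.260 over the set and 0.174 over all features. Further probes could be read for 14 genes, with 21 such probes past the filter, and NT-3N 2 differed from the mean of the other NT-3N mice in the same direction on all 21. The sign of NT-3N minus Control was the same on 18 of the 21. Further probes read the same RNA on the same arrays, so they compare probes and do not replicate mice. The share of probes that agree was not counted over all features.

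The gap was much the same under other treatments of the signals. Over the 19 sterol genes its median was between 0.49 and 0.53 with scaling to the 75th percentile or the median, with normexp background correction, with the deposited log2 values and with the mean of all probes of a gene. NT-3N 2 was the highest array for 14 to 16 of the 19 genes under these settings, and for 12.5% to 16% of all features.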

How the data were processed

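Colon RNA of 2 Control and 3 NT-3N mice was measured on 1-colour Agilent arrays. The authors extracted spots with Agilent Feature Extraction 11.0.1.1, and the deposited scanner files give a background-subtracted intensity per spot, not scaled between arrays. The authors' deposited value table holds log2 values of 37380 probes, which correlated at 0.99998 or more with the quantile-normalized log2 signal computed here and was used as an alternative only. The array design refers to another build, so probes were named through RefSeq accessions in a table of GRCm38.p6, which named 32994 of 56605 probes, and promoter coordinates come from that table.

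Control spots and spots flagged as outliers (69 to 184 of 59305 per array) were left out. Log2 processed signals were averaged over the spots of a probe and quantile-normalized. Probes had to lie well above background on 2 or more of the 5 arrays, with values on both Control arrays and on 2 or more NT-3N arrays, and the brightest probe stood for a gene. The test was limma 3.58.1 (R 4.3.3; lmFit, then eBayes with trend, two-sided), and p-values were adjusted by Benjamini-Hochberg for 32917 features. The study used a local-pooled-error test, run here as an alternative. The number of arrays limits the precision. The labels do not say more about the mice, so p-values measure the spread between these 5 samples. The fits were tested on simulated data.

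The genes, lists and tests were chosen with earlier results of these data known. All values were given per array for genes with an unadjusted p under 0.05, the 5 largest fold changes and 10 regulators and enzymes in any case (Srebf1, Srebf2, Scap, Insig1, Insig2, Hmgcs1, Sqle, Acaca, Fasn and Scd1); values of some others were added after they were seen. Genes of marker lists are named where called, and some genes of the SREBP list are not reported here. Alternatives covered scaling, background correction, the deposited values, filters, probe choice, variance model, array weights, the test, the replicate block and leaving out each array; normexp was run on spot medians because no spot mean was held. The replicate numbers were not used as pairs in the main test. Correlations of deviations by replicate number were 0.130 and 0.036. With 2 Control arrays, whose deviations mirror each other, these values cannot exclude a pairing.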

Additional observations from a re-analysis of the deposited data

How the results depend on the processing

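The count of genes at an adjusted p under 0.05 was 0 in the main comparison and under 13 of 14 settings beside the left-out arrays. It was 1 with the local-pooled-error test, and 0 to 1 over the left-out arrays (1 without Control replicate 2). Both calls were Tm7sf2 on its lost spot. The count at an unadjusted p under 0.05 and higher was 1, and 0 with normexp, with no filter on dim probes and with no intensity trend, and 0 to 2 over the left-out arrays (0 without NT-3N replicate 2, and 2, Insig1 and Stard4, without NT-3N replicate 3). The count lower was 0, and 1 with no filter (Acaca), with array quality weights (Ggps1) and with the local-pooled-error test (Scd1), and 0 to 2 over the left-out arrays, with Scd1 without Control replicate 2, Ggps1 and Scd1 without NT-3N replicate 1, and Dhcr7 and Scd2 without NT-3N replicate 2. The gene that was higher was Tm7sf2 and not Insig1 with the local-pooled-error test and without Control replicate 2.

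The median fold change of the genes ran from -0.07 without NT-3N replicate 2 to 0.14 with array quality weights. Over 13 genes given in full and 19 alternatives, 229 of 247 fold changes kept their direction and side of the adjusted threshold, and 16 of 247 changed sign. Tm7sf2 was -0.16 with the deposited values, with probes above background on all 5 arrays and on its other probe (added after the data were seen), and -0.10 to 9.90 over the left-out arrays. Insig2 was 0.0087 with 75th percentile scaling, 0.031 with median scaling and -0.037 to 0.003 over the left-out arrays. Hmgcs1 was -0.19 with the local-pooled-error test and -0.20 to 0.24 over the left-out arrays. Fasn was 0.050 with array quality weights. Over the left-out arrays Fasn ran from -0.16 to 0.043, Idi1 from -0.029 to 0.49, Scap from -0.026 to 0.072 and Sqle from -0.0084 to 0.37. The cause was not tested. Insig1 stayed between 0.31 and 0.64, with adjusted p from 0.244 to 1.

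With the replicate number as a block, 0 genes of the set and 0 of all features passed the adjusted threshold (2488 features at an unadjusted p under 0.05), and 1 gene, Insig1, was higher at an unadjusted p (0.57, limma adjusted p = 0.653), with 0 lower and a median of 0.12. The number of features called over all settings ran from 0 to 342, and the 2 Control arrays limit what could be called.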
